A study of Mus musculus with 4 samples.

Results

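The immediate early genes described here are Fos, Fosb, Jun, Junb, Egr1, Atf3, Ier2, Zfp36, Nr4a1 and Dusp1, chosen by gene symbol. Each of these 10 genes had 1 probe set, out of 23185 probe sets with a gene symbol, and all 10 were measured on all 4 arrays of the series. The RNA came from airway smooth muscle cells of adult mice of the genotype Acta2-hrGFP;Cspg4-DsRED, in which the Acta2 promoter drives a green reporter and the Cspg4 promoter a red one. Green cells without red were sorted from lung by flow cytometry. In the diet experiment, VAD mice ate a vitamin A-deficient diet with under 0.1 IU of vitamin A per gram, for 3 days by one statement of the labels and 5 days by another, and VAS mice ate a normal, sufficient diet with 15 IU per gram. In the antagonist experiment, both groups ate a powdered sufficient diet for 3 days. The BMS group received in it a compound, given as BMS, that blocks every type of retinoic acid receptor, at a dose of 5 mcg per gram. The CTR group received corn oil in it. Each group was 1 array of RNA pooled from 3 mice, so no group has a replicate, differences compare single arrays, and only 1 fit across both experiments could carry a test.

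Immediate early genes are transcribed within minutes of a stimulus, before any new protein is made. Growth factors, stretch and stress reach them through the ERK, JNK and p38 kinases, which activate serum response factor with its ELK partners, CREB and proteins already bound at their promoters. Their products are transcription factors, which start a second wave of genes, and inhibitors, which end the first. In tissue work they are also known as genes that the digestion and sorting of live cells can induce. All 4 groups were sorted and no unsorted tissue was measured here, so signal present in the lung and signal that arose during isolation cannot be told apart.

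The promoter stretches below show matches to short sequence elements, found by their letters alone. They come from RefSeq promoter windows of build GRCm38.p6, which run from 250 bases before to 50 bases after a transcript start, and 8 of the 10 genes had one. The windows of Egr1 and Ier2, and sequence outside the windows, were not analysed here. Capitals mark matches to a short site of the cyclic AMP response element (TGACG), to a longer site (TGACNTCA) or to the CArG box of serum response factor, each searched on both strands. Each stretch is written 5′ to 3′ on the gene's own strand and holds 20 bases on either side of a match.
Fos, chr12:85473804-85473848, plus strand: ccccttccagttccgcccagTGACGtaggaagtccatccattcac
Fosb, chr7:19310081-19310125, minus strand: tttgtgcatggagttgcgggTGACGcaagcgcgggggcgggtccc
Jun, chr4:95052240-95052287, minus strand: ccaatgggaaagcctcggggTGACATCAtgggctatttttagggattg
Junb, chr8:84978830-84978874, minus strand: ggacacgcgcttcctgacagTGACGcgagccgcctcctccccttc
Atf3, chr1:191183316-191183360, minus strand: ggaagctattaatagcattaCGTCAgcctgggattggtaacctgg
Zfp36, chr7:28379257-28379306, minus strand: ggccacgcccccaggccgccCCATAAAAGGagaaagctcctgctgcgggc
Nr4a1, chr15:101266786-101266830, plus strand: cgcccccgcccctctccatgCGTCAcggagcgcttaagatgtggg
Dusp1, chr17:26508588-26508635, minus strand: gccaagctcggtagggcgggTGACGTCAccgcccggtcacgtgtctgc

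The short site was in 6 of the 8 windows, those of Fos, Fosb, Junb, Atf3, Nr4a1 and Dusp1, and in 20.8% of the 32851 windows in the table. The longer site was in the windows of Jun and Dusp1 and in 8.83% of all windows. In Dusp1 the longer site holds the short site on both strands, so those matches are 1 stretch of DNA. A further short site of Dusp1, with its first base at -191 from the start, lay outside that stretch. The CArG box was in the window of Zfp36 and in 1.63% of all windows. These windows were rich in G and C, with a median of 65% over the 8 genes and 52.7% over all windows, and the short site itself holds a CG pair, so the part of base composition in these counts was not tested. The Nr4a1 window belongs to a start that lies inside the annotated gene. A match is a description of the letters, and no binding was measured.

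The sort left a smooth muscle profile with other cells present. Acta2, smooth muscle actin, stood at 12.12 in VAD and 11.96 in VAS, and at 11.95 in BMS and 11.98 in CTR, on the log2 scale on which all signals here are given. Cspg4, whose reporter was sorted against, stood at 8.22 in VAD and 7.71 in VAS, and at 7.98 in BMS and 8.08 in CTR. The median of all probe sets lay between 5.97 and 6.02 on each array. Markers of other cell types varied between pools, within and between experiments. The granulocyte gene S100a9 stood at 6.47 in CTR and 9.21 in VAS, the fibroblast gene Pi16 at 8.74 and 10.87, and the surfactant gene Sftpc at 7.32 and 10.86. These are the largest differences of their lists, and other markers of the same lists differed the other way: the fibroblast collagen gene Col3a1 was 0.64 higher in CTR than in VAS, and the airway secretory gene Scgb1a1 0.43 higher. Of the markers whose highest signal reached 6.05, the median of all named signals, 5 of 14 for fibroblasts and 2 of 7 for epithelium stood above 0 in CTR minus VAS. The 4 of 8 red cell markers that were measured had a summed linear signal of 272 in VAD and 908 in VAS. In the antagonist experiment it was 942 in BMS and 289 in CTR. Of these 4 only Hbb-b1 reached 6.05, and it differed by -2.00 in VAD minus VAS and 1.96 in BMS minus CTR. In pooled bulk RNA, fewer cells of a type and less RNA per cell cannot be told apart.

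Signals of the immediate early genes were high on all 4 arrays and nearly level between them. Of the 10 genes, 9 had a higher signal than 96% of the named probe sets on every array, and Ier2 had a higher signal than 84.1% of them at most. Such a position describes the brightness of a probe set on the array. It depends on the probes as well as on the transcript, so it gives no order of abundance between genes. The largest gap between any 2 of the 4 arrays was that of Jun, at 0.28, or 1.22-fold.

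**Figure D1:**
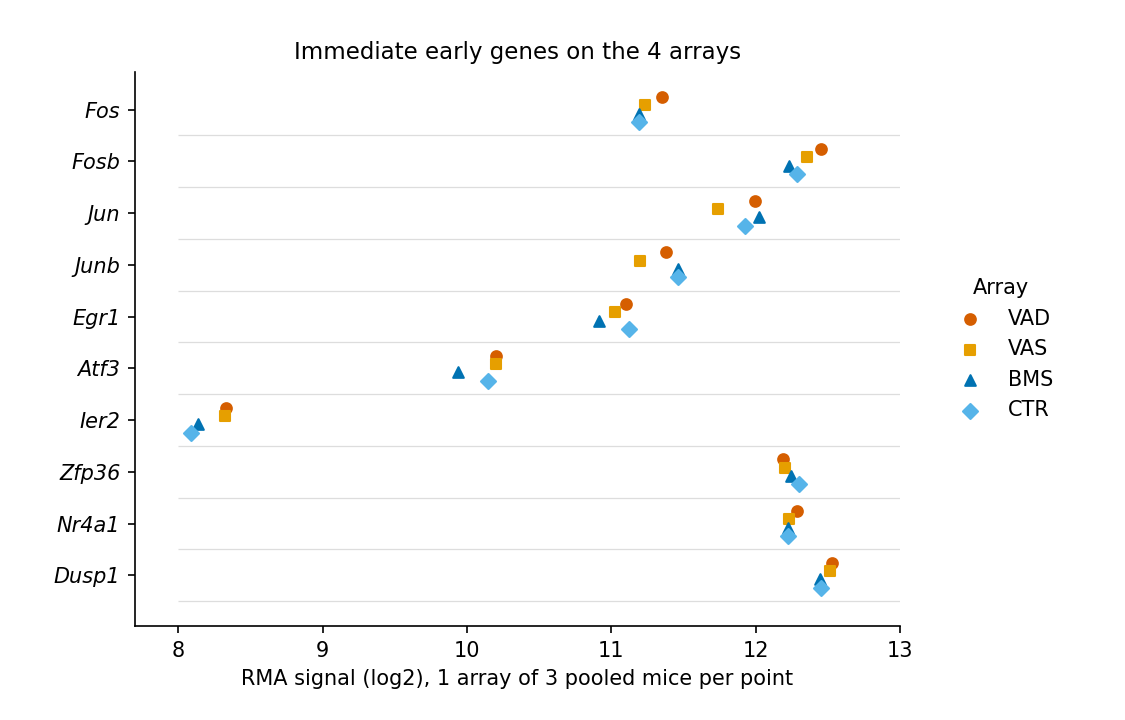
RMA signal on the log2 scale (horizontal axis) of each immediate early gene (rows) on the VAD, VAS, BMS and CTR arrays, 1 point per array of 3 pooled mice, with no error bars since no group has a replicate. The 4 points of each gene lie close together, with Jun spanning 0.28 and Nr4a1 0.07.

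The FOS proteins pair with JUN proteins to form AP-1, a transcription factor that binds DNA as a dimer. Fos (Entrez gene 14281) had a signal of 11.35 in VAD against 11.23 in VAS, and 11.19 in BMS against 11.19 in CTR. Fosb (14282), whose product takes the place of FOS in the dimer, had 12.45 in VAD against 12.36 in VAS, and 12.23 in BMS against 12.28 in CTR. Both genes were highest in VAD, by 0.11 for Fos and 0.09 for Fosb over VAS, and the antagonist array differed from its vehicle by 0.0011 for Fos and -0.06 for Fosb.

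Jun (16476), the main partner of FOS, had 12.00 in VAD against 11.74 in VAS, and 12.02 in BMS against 11.93 in CTR. It was the gene of the 10 with the largest difference in VAD, at 0.26, and in BMS it was 0.09 above CTR. Junb (16477), a JUN protein that often restrains JUN, had 11.38 in VAD against 11.20 in VAS, and 11.46 in BMS against 11.46 in CTR. For both genes VAS was the low array. CTR stood above VAS by 0.19 for Jun and 0.27 for Junb, so against CTR the VAD array was 0.07 higher for Jun and differed by -0.09 for Junb.

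Egr1 (13653), a zinc finger factor and a standard reporter of ERK activity, had 11.10 in VAD against 11.03 in VAS, and 10.91 in BMS against 11.12 in CTR. Atf3 (11910), a stress-induced relative of FOS and JUN, had 10.20 in VAD against 10.20 in VAS, and 9.94 in BMS against 10.14 in CTR. Both were lowest in BMS and differed there by -0.21 each. These were the largest differences of the 10 genes in the antagonist experiment, and of all genes tested, 63.0% differed by less than the larger of them.

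Nr4a1 (15370), an orphan nuclear receptor that needs no ligand and acts through its amount, had 12.29 in VAD against 12.23 in VAS, and 12.23 in BMS against 12.22 in CTR. It had the smallest gap between arrays of the 10 genes, at 0.07, and 1.30% of the genes past the filter had a smaller one. Ier2 (15936), a nuclear protein of less defined function, had 8.33 in VAD against 8.32 in VAS, and 8.14 in BMS against 8.09 in CTR. Its 2 diet arrays were both higher than its 2 antagonist arrays, and the controls differed by -0.23 in CTR minus VAS.

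The remaining pair ends the early response. Zfp36 (22695) encodes tristetraprolin, which binds AU-rich messages, those of early genes and cytokines among them, and speeds their decay. It had 12.19 in VAD against 12.20 in VAS, and 12.25 in BMS against 12.30 in CTR. Dusp1 (19252) encodes a phosphatase that switches off p38, JNK and ERK, and had 12.53 in VAD against 12.52 in VAS, and 12.45 in BMS against 12.45 in CTR. The highest signal of any probe set was between 12.80 and 12.92 on the 4 arrays, so these genes lay close to the top of the scale, and how far that limits a difference upward was not tested.

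In VAD against VAS, which asks what a vitamin A-deficient diet does, the 10 genes had a median difference of 0.06, beside 0.0077 over all 12395 named genes past the filter on low signals. That filter keeps a gene whose highest signal reaches 6.05, and all 4 values of each of the 10 genes were past it. None of the 10 was 2-fold higher and none 2-fold lower, where 0.234% of all genes were 2-fold higher and 0.42% 2-fold lower. None passed 1.5-fold, which 1.45% of all genes did upward and 2.11% downward. In VAD, 8 of the 10 stood above VAS, as did 51.4% of all genes, and the differences ran from -0.01 for Zfp36 to 0.26 for Jun. The smooth muscle markers also stood higher in VAD, with 15 of 18 above 0 and a median of 0.13. The summed linear signal of the epithelial markers, 17 of 17 measured and 7 past the filter, was 1678 in VAD and 3143 in VAS. Of those 7, 2 stood above 0, and Sftpc had the largest difference, at -1.58. The red cell sum, with Hbb-b1 alone past the filter, was lower in VAD too. The part of these cells in the differences of the 10 genes was not tested. Against CTR in place of VAS, 7 of the 10 stood above 0. With so few genes, a count of 0 is near what such shares leave and shows nothing particular to them.

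In BMS against CTR, which asks what blocking the retinoic acid receptors does, the median difference was -0.0045, beside 0.0081 over all genes. Of the 10 genes, 0 were 2-fold higher and 0 were 2-fold lower, where 1.07% and 0.282% of all genes were. At 1.5-fold the counts were again 0, beside 3.11% of all genes upward and 1.89% downward. In BMS, 4 of the 10 stood above CTR, as did 51.4% of all genes, and the differences ran from -0.21 for Egr1 to 0.09 for Jun. The smooth muscle markers were lower beside them, with 0 of 18 above 0 and a median of -0.16, and the fibroblast markers were higher, with 14 of 14 above 0 and a median of 0.46. The part of these cells in the differences of the 10 genes was not tested. The sign is not settled for the smallest differences: after a second quantile normalization, or after cyclic loess, 2 of the 10 stood above 0.

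Between the 2 vitamin A-sufficient controls, CTR against VAS, the median difference was -0.03, beside 0.0025 over all genes. These pools differ in experiment, diet form and vehicle. Of the 10 genes, 0 were 2-fold higher in CTR and 0 were 2-fold lower, where 0.323% and 1.71% of all genes were, and 0 passed 1.5-fold, where 2.66% were higher and 5.87% lower. The differences ran from -0.23 for Ier2 to 0.27 for Junb, and 4 of the 10 stood above 0, as did 50.4% of all genes. After a second quantile normalization 7 of the 10 stood above 0 and after cyclic loess 5, so no shared direction of the 10 genes held between the controls. All 10 lay inside the central 95% of all genes in each of the 3 comparisons, which share the VAS and CTR arrays.

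**Figure D2:**
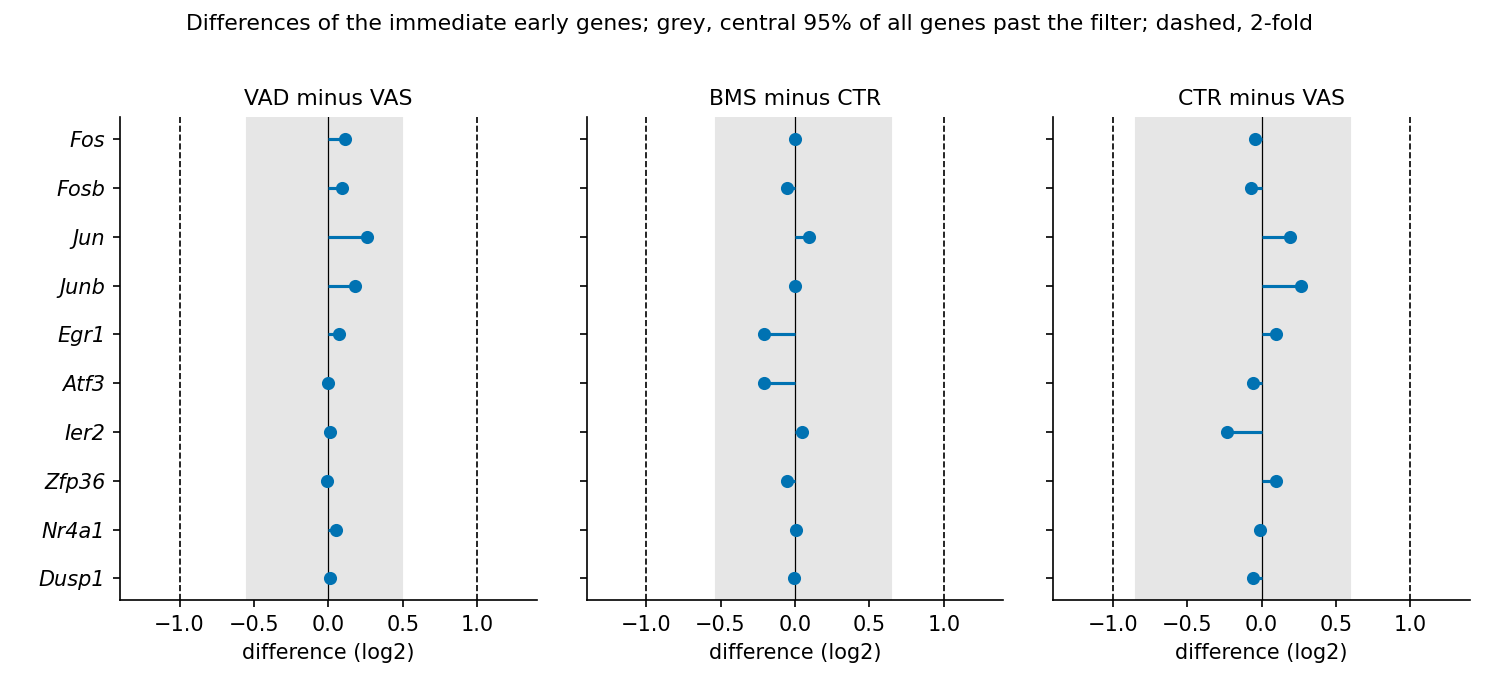
Difference on the log2 scale (horizontal axis) of each immediate early gene (rows) in VAD minus VAS, BMS minus CTR and CTR minus VAS, with 1 array per group. The grey band holds the central 95% of the 12395 genes past the filter and the dashed lines mark 2-fold. Every point lies inside the band, between -0.23 and 0.27.

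The fit with more than 1 array a side set VAD and BMS against VAS and CTR with the experiment as a block, by limma with Benjamini-Hochberg adjustment over all 12395 genes. It called 0 of the 10 genes and 0% of all genes at an adjusted p under 0.05 by limma. At an unadjusted p under 0.05 by limma it held 0 of the 10 genes and 476 of all 12395. With 10 genes, a count of 0 is near what such a share leaves and shows nothing particular to them. Jun had the largest estimate, 0.18 ± 0.14 (SE), higher in VAD and in BMS than in the control of its own experiment, with an adjusted p of 1 by limma. Atf3 had the lowest, -0.10 ± 0.14 (SE), with the same adjusted p. The 95% intervals of the 10 genes reached from -0.46 to 0.53, so they leave room for mean differences of up to 1.44-fold. The fit has 1 residual degree of freedom per gene and treats a diet and a drug as repeats of one contrast, so its lack of calls does not show that the genes were unchanged.

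The spread of the 10 genes over the arrays was narrow. Their gaps between the highest and the lowest array had a median of 0.22, beside 0.35 over all genes past the filter, and each of the 10 was below that median. Bright probe sets in general had narrower gaps. Among the 203 other genes with a mean signal of 11 or more the median gap was 0.25, beside 0.34 for the 3672 genes with a mean from 6 to under 7. The 8 immediate early genes with a mean of 11 or more had a median gap of 0.18, and 6 of these 8 were below 0.25. The 203 genes were not matched to them in signal above 11. Zfp36, Nr4a1, Fosb and Dusp1 had means from 12.24 to 12.49, and the part of brightness in the remaining difference was not tested. The genes were chosen with earlier results of these arrays known, so this narrowness is a description and has no test.

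**Figure D3:**
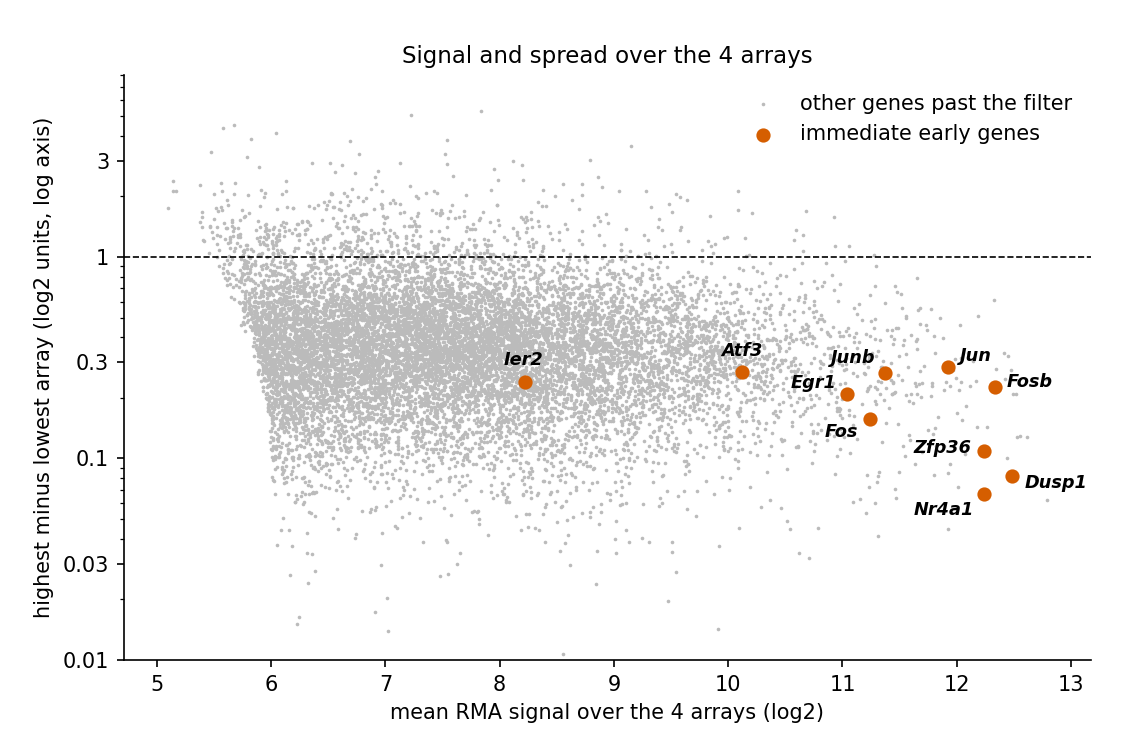
Mean signal over the 4 arrays on the log2 scale (horizontal axis) and the gap between the highest and the lowest array in log2 units (vertical axis, logarithmic) for each gene past the filter, with the 10 immediate early genes in orange and a dashed line at 2-fold. The 10 genes lie below the line, with gaps from 0.07 to 0.28, and 8 of them lie at a mean signal of 11 or more.

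Many other genes had the same nearly flat pattern. The mean profile of the 10 genes, each centred on its own mean, spanned 0.10 over the arrays, and 3279 of 11448 other genes lay within a root mean square distance of 0.1 of it over the 4 arrays. The nearest were Vac14, Usp20, Phf14, Ddx46, Zc3h10, Toe1, Rnf150 and Med11, at distances from 0.0030 to 0.011. The nearest to Jun was L3mbtl2, at 0.0022, with 7.13 in VAD, 6.87 in VAS, 7.16 in BMS and 7.06 in CTR. The nearest to Atf3 was Elf2, at 0.0062, with 8.94 in VAD, 8.95 in VAS, 8.68 in BMS and 8.90 in CTR. With 4 points a likeness of this kind is met by many genes.

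The rest of the AP-1 and ATF family, with 17 of 18 genes past the filter, held no gene 2-fold apart in any of the 3 comparisons. Of all genes, 0.234% were 2-fold higher and 0.42% lower in VAD, 1.07% and 0.282% in BMS, and 0.323% and 1.71% between the controls. With 17 genes, a count of 0 is near what such shares leave. The median difference of the family was 0.10 in VAD, -0.21 in BMS and 0.02 between the controls. Fosl1, the FOS-related subunit FRA1, had 8.93 in VAD against 8.60 in VAS, and 7.60 in BMS against 7.80 in CTR. Its diet arrays were both above its antagonist arrays, and the controls differed by -0.80, which is 1.5-fold lower in CTR but not 2-fold. Jdp2, a repressor of AP-1, differed by -0.63 between the controls and by 0.42 in BMS. Fosl1 and Jdp2 were the 2 of the 17 that were 1.5-fold lower in CTR, where 5.87% of all genes were. Atf1, a close relative of CREB, differed by -0.51 in BMS, with 6.68 in BMS against 7.19 in CTR.

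Other early response transcription factors and their partners, 41 of 42 past the filter, also held no gene 2-fold apart. At most 1.71% of all genes were 2-fold apart in any 1 direction of any comparison. Egr2, a sister of Egr1, had 10.84 in BMS against 10.13 in CTR, a difference of 0.70, and 10.88 in VAD against 10.71 in VAS, so CTR was the low array. Klf4, a factor that opposes the smooth muscle programme, had 10.41 in BMS against 9.96 in CTR, and it too was lowest in CTR. Klf2 was higher in both experiments, with 8.29 in VAD against 7.77 in VAS, and 8.28 in BMS against 7.80 in CTR. Npas4, an activity-induced factor known from neurons, had the largest difference of the list in VAD, at 0.82, with 6.72 in VAD and 5.90 in VAS. Its VAS and BMS signals lay below the filter value of 6.05. In the list, 23 of the 41 stood above 0 in VAD and 12 in BMS, beside 51.4% of all genes in each, and 12 between the controls, beside 50.4%. Npas4 was the 1 gene 1.5-fold higher in VAD, where 1.45% of all genes were, and Egr2 the 1 in BMS, where 3.11% were. Between the controls 0 were 1.5-fold higher, where 2.66% of all genes were, and 1 was lower, where 5.87% were: Plk2, a kinase induced by serum and activity, at -0.74.

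All 25 feedback inhibitors of the early response were past the filter, and 0 of them were 2-fold apart in any of the 3 comparisons. Of all genes, 0.234% were 2-fold higher and 0.42% lower in VAD, 1.07% and 0.282% in BMS, and 0.323% and 1.71% between the controls. With 25 genes, a count of 0 is near what such shares leave. Tnfaip3, which restrains NF-kappaB signalling, was 0.46 higher in VAD, and Dusp14, a phosphatase related to Dusp1, 0.40 higher in BMS. Spry1, an inhibitor of ERK signalling, had 9.71 in CTR against 9.09 in VAS. Nab2, which represses EGR proteins, had 9.01 in CTR against 8.42 in VAS. Those 2 were the list's 1.5-fold differences, and both were between the controls, where 2.66% of all genes were 1.5-fold higher in CTR. The upstream kinases and serum response factor partners, 21 of 29 measured and all 21 past the filter, differed by less than 1.5-fold in every comparison. Mapk9, the gene of JNK2, had the largest difference, 0.49 higher in VAD. Of all genes, 1.45% were 1.5-fold higher and 2.11% lower in VAD, 3.11% and 1.89% in BMS, and 2.66% and 5.87% between the controls.

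Among the secreted proteins and enzymes of the early response, several genes were lower in CTR than in VAS. Of 26 such genes 23 were measured and 22 were past the filter. Between the controls, 4 of the 22 were 2-fold lower in CTR, where 1.71% of all genes were. In the same comparison 18 of the 22 stood at or below 0 and 4 above it, beside 50.4% of all genes above 0. The median difference was -0.41. Ccl7, a monocyte-attracting chemokine, had 8.67 in CTR against 9.89 in VAS. Hmox1, heme oxygenase of the oxidative stress response, had 7.34 in CTR against 8.47 in VAS. Edn1, the constrictor peptide endothelin, had 5.04 in CTR against 6.12 in VAS, and passed the filter only through VAS, so it had to be high there to be counted. With a filter on the mean of the 4 arrays, an alternative chosen after seeing the data, Edn1 drops out and 3 of 21 were 2-fold lower, where 1.48% of all genes were. Has2, a hyaluronan synthase, had 7.46 in CTR against 8.54 in VAS. Between the controls the differences of the 10 immediate early genes ran from -0.23 for Ier2 to 0.27 for Junb, and 4 of the 10 stood above 0. Whether the secreted genes differed more than the 10 immediate early genes was not tested.

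Markers of several other cell types were lower in CTR beside these genes, and most pericyte and vascular smooth muscle markers were higher. The 18 of 19 lymphocyte and granulocyte markers that were measured had a summed linear signal of 1527 in CTR and 2554 in VAS, and 1400 in BMS and 2747 in VAD. The 13 of 15 macrophage and monocyte markers measured summed to 1811 in CTR and 2557 in VAS, and the 14 of 15 fibroblast markers to 22157 in CTR and 25527 in VAS. The 11 pericyte and vascular smooth muscle markers went the other way, with 10 of 11 above 0, a median of 0.34 and a sum of 11853 in CTR and 9089 in VAS. The 13 endothelial markers summed to 2812 in CTR and 2703 in VAS, but 4 of the 12 past the filter stood above 0, with a median of -0.03. Several defining markers of those lists, Cd3d, Cd4, Cd79a, Adgre1 and Marco among them, lay below the filter on every array. The summed signal of the 10 immediate early genes was 33111 in CTR and 32404 in VAS. The part of these cells in the lower secreted genes was not tested.

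Within each experiment fewer of the secreted genes and enzymes were 2-fold apart. In BMS, Has2 was the gene at least 2-fold apart, 1.05 higher than in CTR, where 1.07% of all genes were 2-fold higher, and its BMS signal of 8.51 was near the VAS signal of 8.54. Fibroblast markers, 5 of 14 of them 2-fold higher in BMS, moved with Has2, with a summed linear signal of 29478 in BMS and 22157 in CTR, and their part in it was not tested. In VAD none of the 22 was 2-fold apart, where 0.234% of all genes were higher and 0.42% lower. Lif, a cytokine of the interleukin 6 family, was 0.66 higher in VAD, and Ereg, an epidermal growth factor receptor ligand, 0.63 higher. In all, 3 of the 22 were 1.5-fold higher in VAD, where 1.45% of all genes were. Edn1 was the 1 gene 1.5-fold lower in VAD, where 2.11% of all genes were, with 5.51 in VAD and 6.12 in VAS. Its difference was -0.61, but it passed the filter only through VAS, so it had to be high there to be counted.

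Heat shock genes, which tissue dissociation can induce together with immediate early genes, had a median difference of 0.06 in VAD, 0.05 in BMS and 0 between the controls over the 15 of 18 past the filter. Hspa1b, an inducible HSP70 gene with the near-identical copy Hspa1a, had 10.08 in VAD against 10.83 in VAS, and 11.15 in BMS against 10.56 in CTR. The 2 experiments thus differed in sign for Hspa1b. Hspa1a differed by -0.33 in VAD and by -0.06 in BMS. How far the probes of the 2 copies are shared was not examined, so these values are uncertain. Hsph1, an HSP70 partner, had 9.65 in CTR against 8.72 in VAS and 9.23 in VAD against 8.72 in VAS. None of the 15 was 2-fold apart.

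Dusp1 and Zfp36 are also known targets of glucocorticoids, so the glucocorticoid response genes were set beside them. In VAD, Pdk4, a brake on glucose oxidation, was 0.89 higher, Fkbp5, a chaperone that dampens the receptor, 0.89, and Zbtb16 0.79, with 11 of 15 genes above 0, beside 51.4% of all genes, and none 2-fold apart, where 0.234% of all genes were higher and 0.42% lower. In the same comparison Dusp1 differed by 0.01 and Zfp36 by -0.01. For Pdk4, Fkbp5 and Zbtb16, VAS was the lowest of the 4 arrays, and CTR stood above it by 0.32, 0.31 and 0.56. In BMS, Klf15 differed by -0.71, with 6.92 in BMS and 7.64 in CTR, and 3 of the 15 stood above 0, beside 51.4% of all genes. Between the controls Klf15 was 1.02 higher in CTR and Lcn2, which is also a neutrophil and acute phase gene, differed by -1.53. Over all the pathway lists together, 148 genes past the filter were outside the 10. Of these, 0 were 2-fold higher and 0 lower in VAD. In BMS 1 was 2-fold higher and 0 lower, where 1.07% and 0.282% of all genes were. In CTR minus VAS 1 was 2-fold higher and 5 lower, where 0.323% and 1.71% of all genes were, and the 5 include Edn1.

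**Figure D4:**
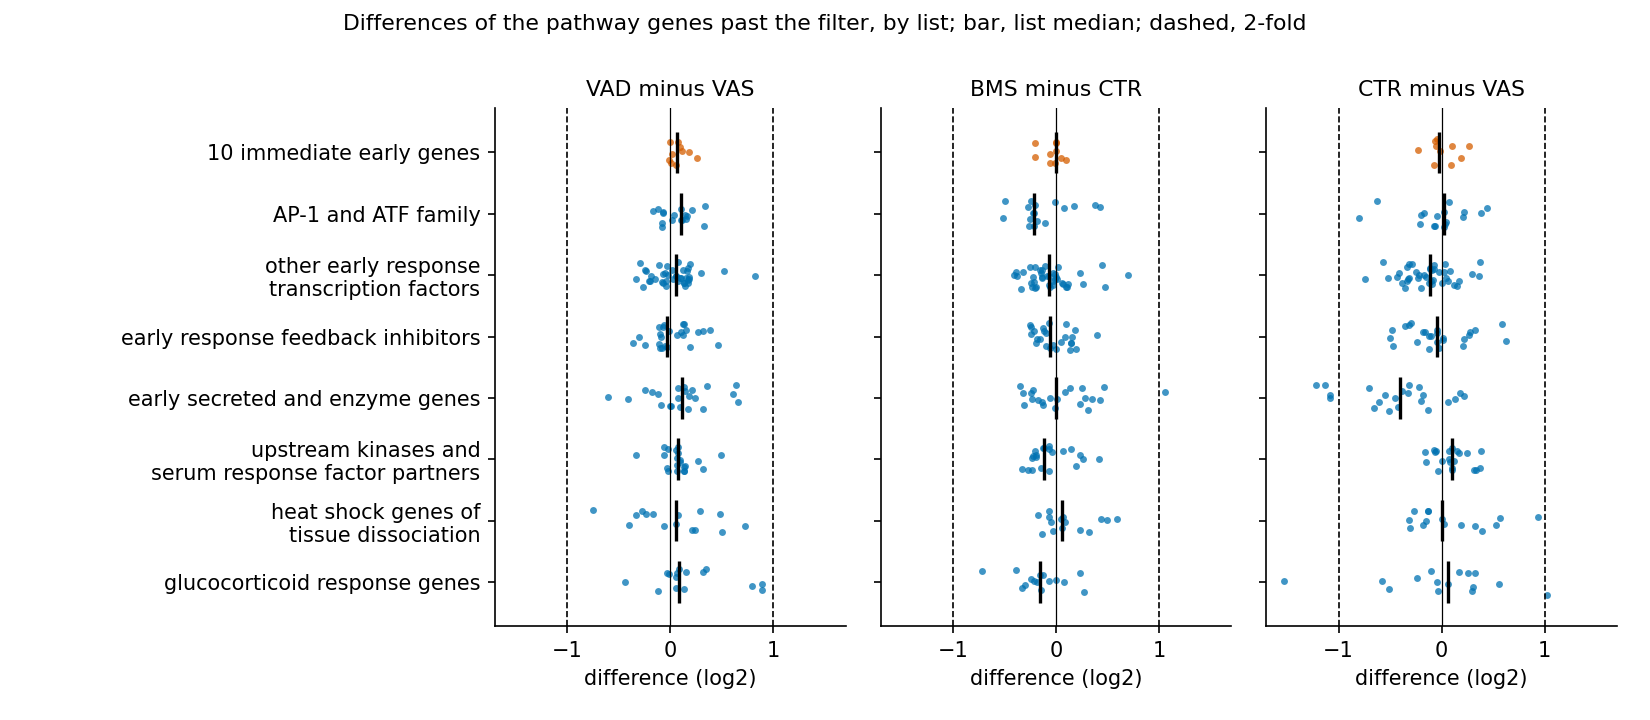
Difference on the log2 scale (horizontal axis) of each gene past the filter in the 10 immediate early genes (orange) and in each pathway list (blue), 1 point per gene with vertical scatter for legibility, for the 3 comparisons of single arrays. Black bars are list medians and dashed lines mark 2-fold. Of the 22 secreted and enzyme genes, 18 lie at or below 0 in CTR minus VAS, with a median of -0.41. Of all genes, 50.4% stood above 0 there. The 10 immediate early genes have a median of -0.03.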

How the data were processed

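The authors' deposited values are RMA signals on the log2 scale for 4 Affymetrix arrays. The submitters' processing notes name affy 1.36.1 and R 2.15.1. Because RMA sets the arrays to a common distribution, it can hide a change that affects most genes alike. Which arrays were normalized together, and detection above background, are not given in the sources used here. Groups came from the sample titles. Of 25206 probe sets, 23185 had 1 gene symbol in GEO's platform annotation and all of these matched RefSeq (GRCm38.p6) by Entrez number; 2021 were unnamed here. Genes whose highest value reached 6.05 were kept (12395). With 1 array in each group, differences of log2 values have no test of their own; the joint test was limma 3.58.1 (lmFit, eBayes) in R 4.3.3. The fit was tested on simulated data. Python 3.11.15, numpy 2.4.6, pandas 2.3.3 and matplotlib 3.10.9 were used. The number of arrays limits the precision.

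The 10 genes and all lists were chosen with earlier results of these data known, and the motifs with the promoter sequences in view. Of 291 symbols on the lists, 21 were not found in the annotation and were not analysed here. Named genes are the 10, up to 3 of each pathway list with the largest absolute difference in each comparison, and the 8 genes nearest to the mean profile with the gene nearest to each of the 10, without predicted genes, Riken clones, small RNAs, pseudogenes and olfactory receptors. Has2 between the controls, Hspa1a and the marker genes S100a9, Pi16, Sftpc, Col3a1, Scgb1a1 and Hbb-b1 were named after their values were seen. Alternatives were thresholds of 1.5-fold and 3-fold, other filters, a second quantile normalization, cyclic loess, a control taken from the other experiment or averaged over both, and other limma settings.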

Additional observations from a re-analysis of the deposited data

How the results depend on the processing

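The count of the 10 genes at least 2-fold apart was 0 in each comparison after a second quantile normalization and after cyclic loess. It was also 0 in VAD and BMS with the other or the mean control. At 1.5-fold the count was 0 in each comparison. At 3-fold it had to be 0, because none was 2-fold apart. In 100 recomputed differences of single genes, the largest was 0.30, or 1.24-fold, and 24 changed sign, each from a difference of at most 0.18: 7 of 30 after quantile normalization, 4 of 30 after cyclic loess, 8 of 20 with the other control and 5 of 20 with the mean control. The median of the 10 genes between the controls was -0.03, and 0.09 after quantile normalization and 0.02 after cyclic loess. Directions of the 10 genes are therefore not settled by these arrays. Limma called 0 of the 10 and 0 of all genes under every setting, and 0 when each array was left out, without the block. Genes 2-fold apart among all named genes were 81 in VAD, 168 in BMS and 252 between the controls, 143 in VAD with no filter, and 51, 94 and 137 with a filter at 7.67, which tests fewer genes. With a filter on the mean of the 4 arrays, chosen after seeing the data, the secreted and enzyme genes 2-fold lower between the controls were 3 in place of 4. The joint fit pairs VAD with VAS and BMS with CTR through the experiment block. No replicate block was possible because each group has 1 array, which limits the precision.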
